A study of Mus musculus with 16 samples.

Results

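Expression of 10 genes of TGF-beta and BMP signalling in brain vessels was examined in mice with and without vessel calcification. The genes were the ligands Tgfb1 and Tgfb2, the receptors Tgfbr1, Tgfbr2, Acvrl1 and Eng, the inhibitory SMADs Smad6 and Smad7, and the target genes Id1 and Id3. They were chosen by symbol, through their Ensembl identifiers, and with earlier results of these data known. All 10 were found among the 21804 genes of the count table. All 10 also passed the filter on low counts in every comparison, so no member is missing from the results.

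Bulk RNA sequencing was done on cortex and thalamus of 8 C57BL/6 mice aged 4 months, 4 of them ret/ret and 4 ret/wt for the Pdgfb retention allele. This allele encodes a form of the growth factor PDGF-B that is not held at the vessel wall, and ret/ret animals have few pericytes. Each animal gave 1 library per region, so the 4 groups were ret/wt cortex, ret/ret cortex, ret/wt thalamus and ret/ret thalamus with n = 4 each. The ret/wt controls also carry 1 copy of the allele, so no group is free of it. Per the labels, the thalamus pieces of ret/ret animals were autofluorescent calcifications cut out under a microscope, and the same place was sampled in ret/wt animals. In the thalamus, the genotype and the cutting out of calcified tissue therefore cannot be told apart. Cortex of both genotypes was described as free of calcification.

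TGF-beta and BMP ligands bind pairs of type II and type I serine/threonine kinase receptors on the cell surface, and the activated type I receptor phosphorylates SMAD proteins that enter the nucleus. Endothelial cells carry ALK1, encoded by Acvrl1, and its co-receptor endoglin, encoded by Eng. Loss of either in humans causes hereditary haemorrhagic telangiectasia. BMP9 and BMP10 signal through ALK1 and endoglin and induce Id1, Id3 and the inhibitory Smad6 and Smad7. TGF-beta signalling between endothelial cells and pericytes is known for its part in the maturation of vessels.

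Library totals ran from 13415391 to 29135064 counts, and values are given as CPM, a gene's count scaled to a common library total. At these depths 3 counts, the floor that a count of 0 allows, were worth 0.103 to 0.224 CPM, which covers counting error only. Smad6 was the lowest of the genes, with 5 to 85 counts per library, and its values are the least precise. The sums of oligodendrocyte and of cortex neuron markers separated the regions, though cortex neuron markers still reached 268 CPM in thalamus. Thalamus neuron markers separated the regions in ret/wt but not in ret/ret. There, cortex replicate 2 held 457 CPM, above thalamus replicates 1 and 4 at 438 and 298 CPM. No defining marker of any cell type list was at 0 in all libraries of a group. Some libraries stood apart. Cerebellum genes reached a sum of 497.9 CPM in replicate 3 of ret/wt cortex and 1139 CPM in replicate 2 of ret/ret cortex. The other cortex libraries held 2.34 to 27.2 CPM. The animals of the high libraries are the 2 with Y-linked reads. Choroid plexus genes reached 1700 CPM in replicate 4 of ret/wt cortex, where the other cortex libraries held 202 to 429 CPM. Replicate 1 of ret/ret was highest in endothelial, microglia and blood markers in both regions. Because the tissue was bulk, more cells of a type and more RNA per cell cannot be told apart.

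No member passed the adjusted threshold in any comparison with edgeR's quasi-likelihood test. Endoglin had the highest ratio between genotypes: its RNA was at 3.29 times the ret/wt mean in ret/ret cortex and 2.85 times in ret/ret thalamus, and every ret/ret library lay above every ret/wt library of its region. Acvrl1, Smad6, Id1 and Id3 also had higher means in ret/ret in both regions, with ratios of means of 1.32 to 2.46. Tgfb1 and Tgfbr2 had ratios of 1.33 to 1.59, Tgfbr1 of 0.949 in cortex and 1.05 in thalamus, and Smad7 of 0.996 and 1.24. Tgfb2 was at 0.798 in cortex and 1.24 in thalamus. In cortex 0 of 10 genes had an adjusted p under 0.05, where the share over all genes was 0.021%, and 5 of 10 had an unadjusted p under 0.05 with a higher mean in ret/ret, against 2.62% of all 14288 genes tested. In thalamus the numbers were 0 of 10, against 0% of all genes, and 2 of 10, against 3.05% of all 14767 genes. The genotypes did not overlap, with ret/ret higher, in 3 of 10 genes in cortex, where the share over all genes was 1.58%, and in 1 of 10 in thalamus, where it was 1.7%. Because the members were chosen with earlier results of these data known, these counts are descriptions and no independent evidence of an excess. Without both animals with Y-linked reads, the number at an unadjusted p under 0.05 was 3 in cortex and 2 in thalamus. With endothelial marker RNA as the library size, which is described with the endothelial markers further on, it was 2 in cortex and 1 in thalamus. The number in thalamus was 1 without ret/ret replicate 1, ret/wt replicate 2 or ret/wt replicate 3, and 4 without ret/wt replicate 4. For these alternatives the share of all genes at an unadjusted p under 0.05 was not computed. The shares of 2.62% and 3.05% belong to the fits with all libraries and the usual scaling.

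**Figure D1:**
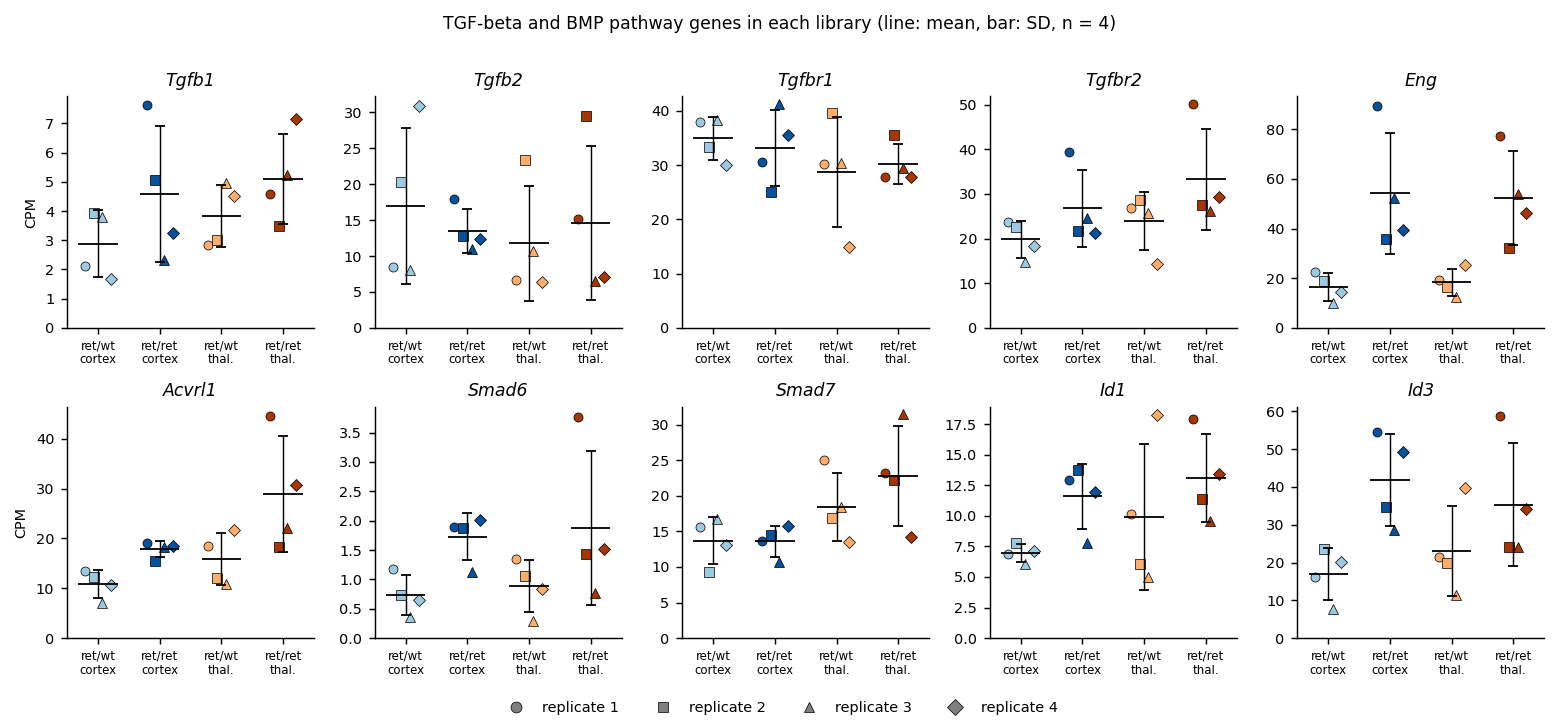
CPM of the 10 genes (vertical axis, linear, from 0) in the 16 libraries, grouped by genotype and region on the horizontal axis. Points are libraries with a marker per replicate number, the line is the mean and the bar is the SD (n = 4). Eng shows ret/ret libraries at 32 to 89.2 CPM above ret/wt libraries at 10.1 to 25.3 CPM. In thalamus the genotypes overlap in every other gene, and in cortex in all others but Acvrl1 and Id3.

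Of the ligands, Tgfb1 encodes the most widely expressed TGF-beta isoform and Tgfb2 an isoform made by neurons and glia. Tgfb1 (ENSMUSG00000002603, chromosome 7, 25687002 to 25705077 in GRCm38, + strand) was at 2.12, 3.95, 3.78 and 1.68 CPM in ret/wt cortex and at 7.62, 5.06, 2.34 and 3.26 CPM in ret/ret cortex, in the order of replicates 1 to 4. Its values were 2.85, 2.99, 4.96 and 4.52 CPM in ret/wt thalamus and 4.57, 3.49, 5.24 and 7.14 CPM in ret/ret thalamus. In each region 2 ret/ret libraries lay above all ret/wt libraries and the others were within their range. Tgfb1 had a log2 fold change of ret/ret over ret/wt of 0.68 ± 0.45 (SE) in cortex and 0.44 ± 0.34 (SE) in thalamus, and neither reached an unadjusted p under 0.05.

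Tgfb2 (ENSMUSG00000039239, chromosome 1, 186622792 to 186705989, - strand) varied more between libraries of a group than between groups. It was at 8.48, 20.2, 8.09 and 30.8 CPM in ret/wt cortex and 17.9, 12.8, 11 and 12.3 CPM in ret/ret cortex. The thalamus held 6.69, 23.4, 10.6 and 6.40 CPM in ret/wt and 15.1, 29.5, 6.6 and 7.09 CPM in ret/ret. Replicate 4 was the highest of ret/wt cortex, the library that also held the most choroid plexus RNA, and the part of that RNA in the value was not tested. Its log2 fold change was -0.31 ± 0.42 (SE) in cortex, where it was 0.16 without that library, and 0.35 ± 0.55 (SE) in thalamus.

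Among the receptors, Tgfbr1 encodes the TGF-beta type I receptor ALK5 and Tgfbr2 the type II receptor that activates it. Tgfbr1 (ENSMUSG00000007613, chromosome 4, 47353222 to 47414931, + strand) was at 34.9 ± 3.97 CPM (SD, n = 4) in ret/wt and 33.1 ± 6.98 CPM (SD, n = 4) in ret/ret cortex, and in thalamus at 28.7 ± 10.2 CPM (SD, n = 4) and 30.2 ± 3.66 CPM (SD, n = 4). The 16 libraries lay between 25.0 and 41.4 CPM, apart from ret/wt thalamus replicate 4 at 14.9 CPM. A log2 fold change of -0.06 ± 0.18 (SE) in cortex and 0.11 ± 0.26 (SE) in thalamus was smaller than its error in both regions.

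Tgfbr2 (ENSMUSG00000032440, chromosome 9, 116084293 to 116175360, - strand) was at 23.6, 22.6, 14.7 and 18.4 CPM in ret/wt cortex and 39.4, 21.6, 24.7 and 21.4 CPM in ret/ret cortex. In thalamus the values were 26.9, 28.6, 25.8 and 14.4 CPM in ret/wt and 50.1, 27.4, 26.1 and 29.3 CPM in ret/ret. Replicate 1 of ret/ret, the animal with the most endothelial and microglia marker RNA, was the highest library in both regions, and the other ret/ret libraries reached at most 29.3 CPM. For Tgfbr2 the log2 fold change was 0.45 ± 0.25 (SE) in cortex and 0.52 ± 0.28 (SE) in thalamus, with unadjusted p-values of 0.103 and 0.096 in edgeR's quasi-likelihood test.

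Eng (ENSMUSG00000026814, chromosome 2, 32646595 to 32682669, + strand) encodes endoglin, the co-receptor that presents BMP9 and BMP10 to ALK1 on endothelial cells. In cortex it was at 22.6, 18.9, 10.1 and 14.3 CPM in ret/wt and 89.2, 35.8, 52.4 and 39.3 CPM in ret/ret. Thalamus values were 19.4, 16.5, 12.3 and 25.3 CPM in ret/wt and 77.1, 32, 53.8 and 46.3 CPM in ret/ret. The genotypes did not overlap in either region, and ret/ret replicate 1 was the highest library in both. That is a log2 fold change of 1.74 ± 0.35 (SE) in cortex and of 1.54 ± 0.31 (SE) in thalamus. In edgeR's quasi-likelihood test the unadjusted p was 5.7e-04 in cortex and 6.0e-04 in thalamus, and the Benjamini-Hochberg adjusted p was 0.476 and 0.629. The adjusted p depended on the tool: with DESeq2's Wald test it was 0.0017 in cortex and 0.0041 in thalamus, and over all alternatives it ran from 0.0017 to 0.999 and from 0.0041 to 1.0. When each replicate was left out in turn, the log2 fold change stayed between 1.38 and 1.93 in cortex and between 1.28 and 1.76 in thalamus. Eng overlaps Fpgs on the opposite strand, and whether the counting used strand is not given in the sources used here, so reads of the shared stretch may belong to either gene.

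The 250 bases before the annotated start of Eng and of Smad6, a receptor and an inhibitor with ret/ret means above ret/wt in both regions, are printed from RefSeq GRCm38.p6 because the RNA of these genes varied together across libraries. The promoter table matched 7 of the 10 members. Capitals mark the pentamer CAGAC, the letters known from SMAD-bound elements, or its reverse complement GTCTG. The hexamer GGCGCC, which is its own reverse complement and occurs in BMP-responsive elements, was searched too.
Eng, chr2:32646345-32646594, + strand: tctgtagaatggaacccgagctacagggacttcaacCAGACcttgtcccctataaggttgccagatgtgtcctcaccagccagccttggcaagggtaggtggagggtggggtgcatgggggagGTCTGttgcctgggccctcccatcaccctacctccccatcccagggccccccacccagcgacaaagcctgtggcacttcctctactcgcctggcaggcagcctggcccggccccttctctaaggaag
Smad6, chr9:64022060-64022309, - strand: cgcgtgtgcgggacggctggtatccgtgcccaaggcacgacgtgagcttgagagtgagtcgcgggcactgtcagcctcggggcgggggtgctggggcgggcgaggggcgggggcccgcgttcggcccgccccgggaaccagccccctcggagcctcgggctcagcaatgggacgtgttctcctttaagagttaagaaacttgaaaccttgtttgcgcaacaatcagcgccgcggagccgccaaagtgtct
CAGAC lay at -214 and -127 in the Eng window, counted back from the base before the start, and neither motif was found in that of Smad6. CAGAC was found in 5 of the 7 members with a window (Eng, Id3, Tgfb2, Tgfbr1 and Tgfbr2) and in 42.2% of all 32851 windows of the same length. GGCGCC was found in 1 member, Tgfbr1, and in 9.6% of all windows. The 7 members had 8 windows, since Tgfbr1 had more than 1, and the shares over all count windows and not genes. The Tgfbr1 window with GGCGCC was not the one with CAGAC. The Id3 window and the Tgfbr1 window with CAGAC lay inside the GENCODE bounds of these genes. A match of these letters is a description of the sequence and not a binding site.

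Acvrl1 (ENSMUSG00000000530, chromosome 15, 101128522 to 101145336, + strand) encodes ALK1, the type I receptor for BMP9 and BMP10. It was at 13.4, 12.2, 6.99 and 10.6 CPM in ret/wt cortex and 19.0, 15.4, 18.4 and 18.6 CPM in ret/ret cortex. Its thalamus values were 18.6, 12.1, 10.8 and 21.8 CPM in ret/wt and 44.6, 18.3, 22.0 and 30.8 CPM in ret/ret. The genotypes did not overlap in cortex, and in thalamus 3 of the 4 ret/ret libraries lay above all ret/wt libraries. Acvrl1 had log2 fold changes of 0.74 ± 0.23 (SE) in cortex and 0.90 ± 0.34 (SE) in thalamus, with unadjusted p-values of 0.0085 and 0.0234 in edgeR's quasi-likelihood test.

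Smad6 and Smad7 encode inhibitory SMADs, which block type I receptors and are themselves induced by the pathway. Smad6 (ENSMUSG00000036867, chromosome 9, 63953076 to 64022059, - strand) was at 1.18, 0.731, 0.352 and 0.652 CPM in ret/wt cortex and 1.89, 1.88, 1.13 and 2.02 CPM in ret/ret cortex. In thalamus Smad6 was at 1.34, 1.05, 0.299 and 0.840 CPM in ret/wt and 3.77, 1.43, 0.776 and 1.51 CPM in ret/ret. In each region 3 of the 4 ret/ret libraries lay above all ret/wt libraries and replicate 3 did not, and replicate 3 was also the lowest ret/wt library in both regions. Its log2 fold change was 1.28 ± 0.45 (SE) in cortex and 1.12 ± 0.60 (SE) in thalamus, with unadjusted p-values of 0.0175 and 0.0938 in edgeR's quasi-likelihood test. Replicate numbers of the 2 genotypes are different animals.

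Smad7 (ENSMUSG00000025880, chromosome 18, 75367529 to 75395935, + strand) was at 15.6, 9.35, 16.7 and 13 CPM in ret/wt cortex and 13.7, 14.4, 10.7 and 15.8 CPM in ret/ret cortex, so the ranges coincided. In thalamus Smad7 was at 25.0, 16.9, 18.5 and 13.4 CPM in ret/wt and 23.2, 22.2, 31.4 and 14.2 CPM in ret/ret. Its log2 fold change was 0.01 ± 0.23 (SE) in cortex and 0.34 ± 0.27 (SE) in thalamus.

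Id1 and Id3 encode inhibitors of helix-loop-helix transcription factors and are direct targets of BMP signalling. Id1 (ENSMUSG00000042745, chromosome 2, 152736251 to 152737410, + strand) was at 6.91, 7.75, 6.02 and 7.11 CPM in ret/wt cortex and 12.9, 13.8, 7.74 and 11.9 CPM in ret/ret cortex. In thalamus Id1 was at 10.2, 6.10, 5.02 and 18.2 CPM in ret/wt and 17.9, 11.4, 9.60 and 13.4 CPM in ret/ret. In cortex the genotypes missed separation by 1 library, ret/ret replicate 3 at 7.74 CPM against 7.75 CPM in ret/wt replicate 2, and in thalamus ret/wt replicate 4 was the highest of all. That library also held the most endothelial, pericyte and smooth muscle marker RNA of its group, and the part of this in the value was not tested. Id1 had log2 fold changes of 0.76 ± 0.24 (SE) in cortex and 0.43 ± 0.41 (SE) in thalamus, with unadjusted p-values of 0.0105 and 0.323 in edgeR's quasi-likelihood test.

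Id3 (ENSMUSG00000007872, chromosome 4, 136143497 to 136145755, + strand) was at 16.2, 23.6, 7.83 and 20.3 CPM in ret/wt cortex and 54.6, 34.6, 28.7 and 49.4 CPM in ret/ret cortex. In thalamus Id3 was at 21.5, 19.9, 11.4 and 39.7 CPM in ret/wt and 58.7, 24.1, 24.2 and 34.1 CPM in ret/ret. The genotypes did not overlap in cortex, whereas in thalamus ret/wt replicate 4 lay above 3 of the 4 ret/ret libraries. Its log2 fold change was 1.32 ± 0.34 (SE) in cortex and 0.64 ± 0.41 (SE) in thalamus, with unadjusted p-values of 0.0034 and 0.156 in edgeR's quasi-likelihood test. Whether the effect of genotype differed between cortex and thalamus was tested as an interaction. For Id3 it was -0.69 ± 0.56 (SE), and 0 of 10 genes had an unadjusted p under 0.05, against 1.6% of all 15286 genes tested. With the animal as a replicate block, which pairs the regions, the interaction of Id3 was -0.72 ± 0.30 (SE) with an unadjusted p of 0.0369 and an adjusted p of 1.0 in edgeR, and 1 of 10 genes was under 0.05 unadjusted. The share of all genes at an unadjusted p under 0.05 was not computed for the blocked fit. At an adjusted p under 0.05 that fit called 0 of all 15286 genes.

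**Figure D2:**
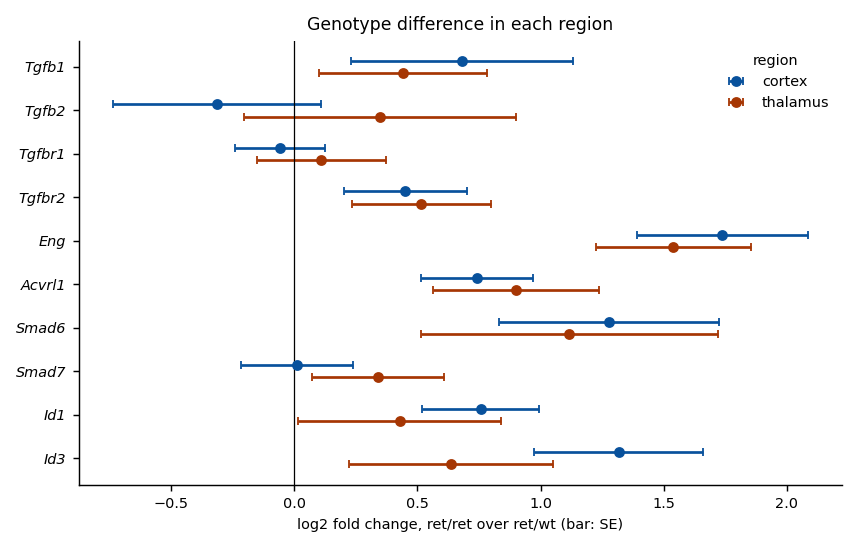
Log2 fold change of ret/ret over ret/wt (horizontal axis) for the 10 genes, with points for cortex and thalamus and bars for the SE of the quasi-likelihood fit. The vertical line is 0. Eng stands farthest from 0, at 1.74 in cortex and 1.54 in thalamus, and Tgfbr1 closest in both regions together.

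With the animal as the replicate, the counts of both regions were summed for each of the 8 animals. The sums of Eng stood at 17.1 ± 4.25 CPM (SD, n = 4) in ret/wt animals, and those of ret/ret animals at 53.4 ± 20.9 CPM (SD, n = 4). Their log2 ratio was 1.64 ± 0.29 (SE), and edgeR gave it an adjusted p of 0.243. Acvrl1 sums were at 13.3 ± 3.68 CPM (SD, n = 4) in ret/wt animals and at 24.5 ± 8.05 CPM (SD, n = 4) in ret/ret animals, and both genes had no overlap between genotypes, where the share over all genes with ret/ret higher was 2.15%. The log2 fold change was 0.88 ± 0.27 (SE) for Acvrl1, 1.20 ± 0.49 (SE) for Smad6 and 0.97 ± 0.34 (SE) for Id3. At an unadjusted p under 0.05 with ret/ret higher there were 4 of 10 genes, against 3.62% of all 15505 genes, and 0 of 10 at an adjusted p under 0.05, against 0.0129% of all. Without ret/ret replicate 1 the first number was 2, and with endothelial marker RNA as the library size it was 1. The matching share over all genes was not computed for either alternative. With DESeq2's Wald test the adjusted p of Eng was 3.5e-05, and with limma-voom and the animal as a random block it was 0.0134, an alternative chosen after seeing the data.

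Eng and Acvrl1 are known in brain mainly from endothelial cells, so each member was set against the summed counts of 14 endothelial markers in the same library. Those markers summed to 274 to 379 CPM in ret/wt cortex and 347 to 627 CPM in ret/ret cortex, and to 386 to 521 CPM in ret/wt thalamus and 378 to 762 CPM in ret/ret thalamus. Their median log2 fold change was 0.63 in cortex, with 12 of 14 above 0, and 0.49 in thalamus, with 14 of 14 above 0, so endothelial RNA was also higher where the members were, and the members are given per endothelial count beside it. Eng was at 62.5, 49.9, 33.9 and 52.1 per 1000 endothelial counts in ret/wt cortex and 142.3, 78.9, 123.4 and 113.2 in ret/ret cortex. The thalamus ratios were 50.4, 41.1, 30.4 and 48.6 in ret/wt and 101.3, 60.4, 142.5 and 97.4 in ret/ret. The groups did not overlap in either region. The ratio of means was 2.31 in cortex and 2.36 in thalamus, with a two-sided exact permutation p of 0.0286 in each, the smallest that 4 against 4 libraries can give, before any correction for the 20 tests of this kind. Against each endothelial marker alone, the Eng ratio of means was above 1 for 14 of 14 markers in both regions, from 1.35 to 4.97 in cortex and 1.47 to 2.84 in thalamus. Its genotypes did not overlap against 11 of the 14 markers in cortex and 10 in thalamus. The Smad6 ratio was also above 1 for 14 of 14 markers in both regions, without overlap against 2 and 0 of them. For Id3 it was above 1 for 14 in cortex and 11 in thalamus, without overlap against 3 and 1. The 14 ratios of a member share its counts, so they are not separate observations. The share of all genes without overlap was not computed for ratios to endothelial counts.

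The other members were less clear per summed endothelial count. Id3 had a ratio of 1.80 in cortex with an exact permutation p of 0.0571 and 1.23 in thalamus with one of 0.371. Smad6 had 1.79 in cortex (exact permutation p = 0.0857) and 1.52 in thalamus (exact permutation p = 0.257). Acvrl1 had 1.22 in cortex and 1.47 in thalamus, with exact permutation p-values of 0.314 and 0.0857, and Id1 had 1.21 and 1.11. Tgfbr1 had 0.704 in cortex and 0.857 in thalamus, and its ranges overlapped in both. The test of the remaining genes gave exact permutation p-values of 0.143 or more. With endothelial RNA as the library size in edgeR, the median log2 fold change of all genes moved to -0.47 in cortex and -0.30 in thalamus, and that of the members was 0.19 and 0.18, against 0.71 and 0.48 with the usual scaling.

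**Figure D3:**
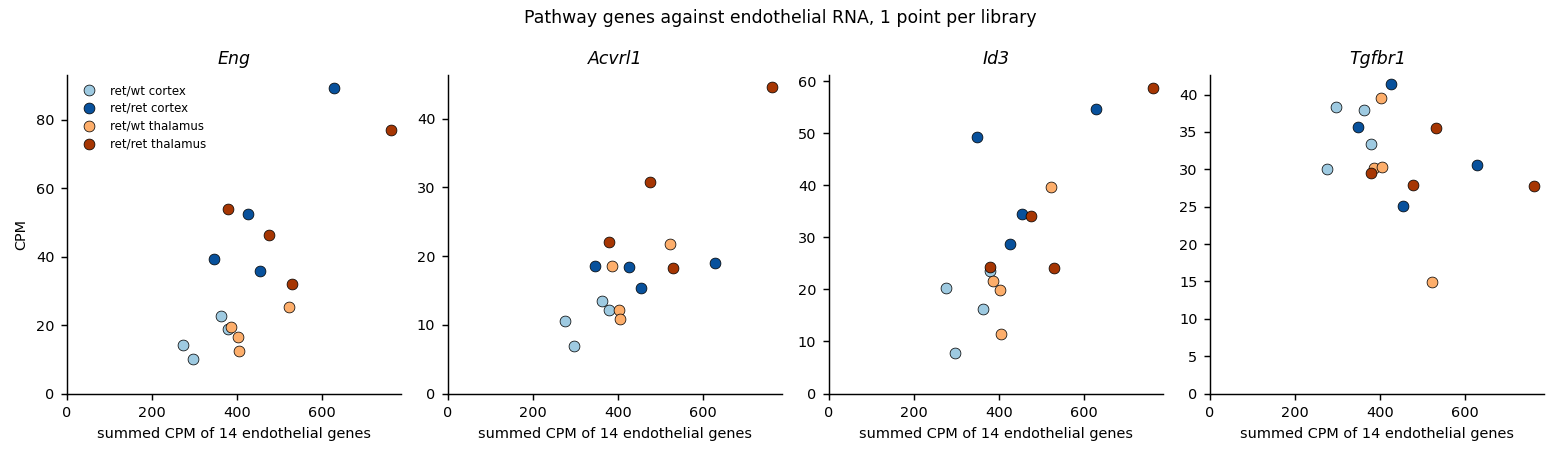
CPM of Eng, Acvrl1, Id3 and Tgfbr1 (vertical axes, from 0) against the summed CPM of 14 endothelial markers (horizontal axis, from 0), with 1 point per library colored by group. At similar endothelial sums the ret/ret libraries lie above the ret/wt libraries for Eng, and the groups mix for Tgfbr1.

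Eng, Acvrl1, Smad6, Id1 and Id3 varied together across libraries. This set of 5 was picked after the values were seen. Pearson r of their log2 CPM was 0.70 to 0.85 for the 10 pairs over 16 libraries, and 0.49 to 0.85 for deviations from the group means, where the genotype and region differences are removed. The 16 points share 8 animals and differ in depth, so these are descriptions. Tgfb2, Tgfbr1 and Smad7 had r of -0.65 to 0.29 with those 5 genes. For Tgfb1 r with those genes was 0.17 to 0.47, and for Tgfbr2 it was 0.27 to 0.65. With the endothelial sum, r was 0.71 for Eng, 0.76 for Acvrl1, 0.65 for Smad6, 0.70 for Id1 and 0.68 for Id3, and -0.37 for Tgfbr1. For the summed CPM of 10 pericyte markers, r was -0.31 for Eng, 0.10 for Acvrl1, 0.04 for Smad6, 0.21 for Id1 and 0.03 for Id3. Their median log2 fold change between genotypes was -0.94 in cortex, with 6 of 8 tested below 0, and -0.99 in thalamus, with 10 of 10. The r with the summed CPM of 10 microglia markers was 0.77 for Eng, 0.71 for Acvrl1, 0.52 for Smad6, 0.46 for Id1 and 0.61 for Id3. Those markers summed to 334 to 486 CPM in ret/wt cortex and 311 to 657 CPM in ret/ret cortex, and to 340 to 424 CPM in ret/wt thalamus and 536 to 795 CPM in ret/ret thalamus. All 10 microglia markers had a log2 fold change above 0 in each region, with a median of 0.30 in cortex and 0.69 in thalamus, and 8 of the 10 had an unadjusted p under 0.05 in thalamus and 0 in cortex. The part of microglia RNA in the members' fold changes was not tested.

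**Figure D4:**
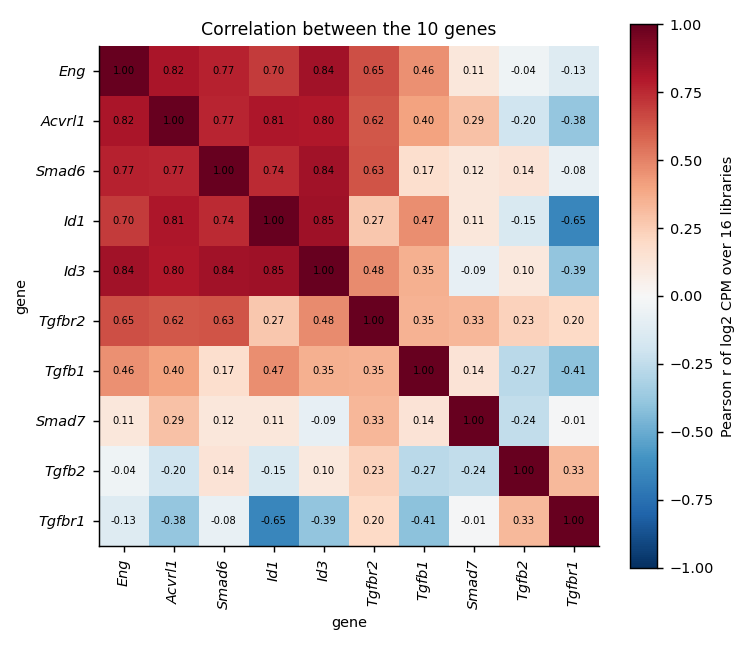
Pearson r of log2 CPM over the 16 libraries for each pair of the 10 genes, colored from blue (-1) through white (0) to red (1), with the value in each cell. Eng, Acvrl1, Smad6, Id1 and Id3 form a block at 0.70 to 0.85, and Tgfbr1 with Id1 is the lowest pair at -0.65.

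The genes outside the set whose log2 CPM was most like that of each member were ranked among 12668 genes over the 16 libraries, by an r that includes the differences between genotypes and regions. For Eng they were Clec14a (r = 0.95), a surface lectin of endothelial cells, Lpar6 (r = 0.91) and H2-Q7 (r = 0.91), and for deviations from the group means these r were 0.84, 0.59 and 0.75. For Acvrl1 they were Vwa1 (r = 0.94), Aldh4a1 (r = 0.91) and H2-K1 (r = 0.90). For Smad6 they included Iigp1 (r = 0.89) and Clec14a (r = 0.85), and for Id3 they were Mfng (r = 0.91), H2-Q7 (r = 0.91) and Tie1 (r = 0.91), an endothelial receptor. For Id1 they were Mrpl28 (r = 0.92), Mrpl36 (r = 0.89) and Cd74 (r = 0.89). For Tgfbr1 they were Pde7a (r = 0.93), Dpp8 (r = 0.93) and Hs6st3 (r = 0.92). For Tgfbr2 the nearest was Dock2 (r = 0.86), for Tgfb1 it was Sri (r = 0.83), for Smad7 Maea (r = 0.82) and for Tgfb2 Dok4 (r = 0.76).

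Levels between genes were compared as counts per exon length, scaled to the same total in each library. Id3 was the highest of the 10 in every group, with a cortex mean of 34.5 ± 15 (SD, n = 4) for ret/wt against 82.2 ± 22 (SD, n = 4) for ret/ret. Smad6 was the lowest in every group, with a thalamus mean of 0.999 ± 0.603 (SD, n = 4) for ret/wt against 1.91 ± 1.37 (SD, n = 4) for ret/ret. Eng stood in place 4 in ret/wt cortex, at 14.8 ± 5.72 (SD, n = 4), and in place 2 in ret/ret cortex, at 47.6 ± 21.9 (SD, n = 4). In thalamus it moved from place 3, at 15.7 ± 4.6 (SD, n = 4), to place 2, at 41.8 ± 15.4 (SD, n = 4). Most neighbours in the order overlapped. Those that did not were Tgfbr2 and Tgfb1 in ret/wt cortex, Id1 and Tgfbr1 and also Tgfb2 and Tgfb1 in ret/ret cortex, and Tgfb2 and Tgfb1 and also Tgfb1 and Smad6 in ret/wt thalamus.

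Between regions, Smad7 had the smallest adjusted p of the members. In ret/ret animals the thalamus held 22.8 ± 7.05 CPM of Smad7 (SD, n = 4) and the cortex 13.6 ± 2.16 CPM (SD, n = 4), and its log2 fold change of thalamus over cortex was 0.74 ± 0.25 (SE), for which edgeR gave an adjusted p of 0.0945. Acvrl1 had 0.70 ± 0.27 (SE) and, also from edgeR, an adjusted p of 0.134. This fit did not pair the regions of an animal. None of the 10 passed in ret/ret, against 9.5% of all 14715 genes, and none in ret/wt, against 12.6% of all 14442 genes. At an unadjusted p under 0.05 with thalamus higher there were 2 in ret/ret, against 12.1% of all genes, and 0 in ret/wt, against 13%. With the animal as a replicate block the number in ret/ret was 1, and the matching share over all genes was not computed. DESeq2's Wald test gave Smad7 an adjusted p of 0.0387 in ret/ret, where it called 2591 of all 14715 genes. In ret/wt the log2 fold change was 0.44 ± 0.26 (SE) for Smad7 and 0.57 ± 0.30 (SE) for Acvrl1, and that of Eng was 0.18 ± 0.31 (SE), against -0.05 ± 0.34 (SE) in ret/ret.

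The rest of the pathway was read from 6 lists of 78 genes, of which 75 were in the table and 73 were tested between genotypes. None of the 73 had an adjusted p under 0.05 between genotypes in either region. At an unadjusted p under 0.05 there were 5 higher and 3 lower in cortex, where 375 of all 14288 genes were higher (2.62%) and 163 lower. In thalamus there were 2 higher and 2 lower, where 451 of all 14767 genes were higher (3.05%) and 130 lower. The median log2 fold change of the 73 genes was 0.01 in cortex and 0.01 in thalamus, against 0.01 and -0.02 over all genes tested, while that of the 10 members was 0.71 and 0.48. Members and lists were chosen with earlier results of these data known, so this contrast is a description. In the receptor list 0 of 9 genes reached an unadjusted p under 0.05 in either region, and the median was 0.01 in cortex and -0.001 in thalamus. Of the 16 target genes 14 were above 0 in each region, with a median of 0.33 in cortex and 0.13 in thalamus. Over all genes, 7410 of 14288 were above 0 in cortex and 6961 of 14767 in thalamus. Of the 14 endothelial markers, 12 were above 0 in cortex and 14 in thalamus. At an unadjusted p under 0.05 with ret/ret higher there were 3 target genes in cortex and 1 in thalamus.

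Ccn2, which encodes the matricellular protein CTGF and is induced by TGF-beta, was the target gene with the clearest difference. It was at 17.0, 47.6, 29.6 and 40.0 CPM in ret/wt cortex and 67.3, 97.4, 56.9 and 92.0 CPM in ret/ret cortex, with no overlap. In thalamus Ccn2 was at 14.1, 7.60, 6.70 and 19.1 CPM in ret/wt and 34.0, 43.3, 9.75 and 29.8 CPM in ret/ret, and ret/ret replicate 3 lay within the ret/wt range. Its log2 fold change was 1.24 ± 0.31 (SE) in cortex and 1.33 ± 0.47 (SE) in thalamus. Atoh8, a target of ALK1 signalling in endothelial cells, had cortex means of 1.13 ± 0.391 CPM (SD, n = 4) for ret/wt and 3.05 ± 0.708 CPM (SD, n = 4) for ret/ret, a log2 fold change of 1.43 ± 0.37 (SE) with no overlap. Smad4, the SMAD that partners the receptor-activated ones, had a log2 fold change of -0.81 ± 0.25 (SE) in cortex, and Fbn1, which encodes the microfibril protein fibrillin-1, had -0.84 ± 0.26 (SE), both with ret/ret below ret/wt in every library. Bmp6, a BMP ligand, had 0.77 ± 0.26 (SE) in cortex, with ranges that overlapped.

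In thalamus the genes with the smallest unadjusted p also included Bmper, which encodes a secreted modulator of BMPs, at -0.81 ± 0.25 (SE), and Nrros, which encodes a holder of latent TGF-beta on microglia, at -1.12 ± 0.39 (SE). In both genes the 4 ret/ret libraries lay below the 4 ret/wt libraries, as in 152 of all 14767 genes tested. Lrrc32, which encodes the latent TGF-beta receptor GARP, had 1.45 ± 0.62 (SE), but its ret/ret values were 21.2, 9.21, 2.72 and 3.12 CPM against 2.33 to 4.33 CPM in ret/wt, so replicates 1 and 2 alone lay above. Grem1, a BMP antagonist, had -0.84 ± 0.40 (SE).

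**Figure D5:**
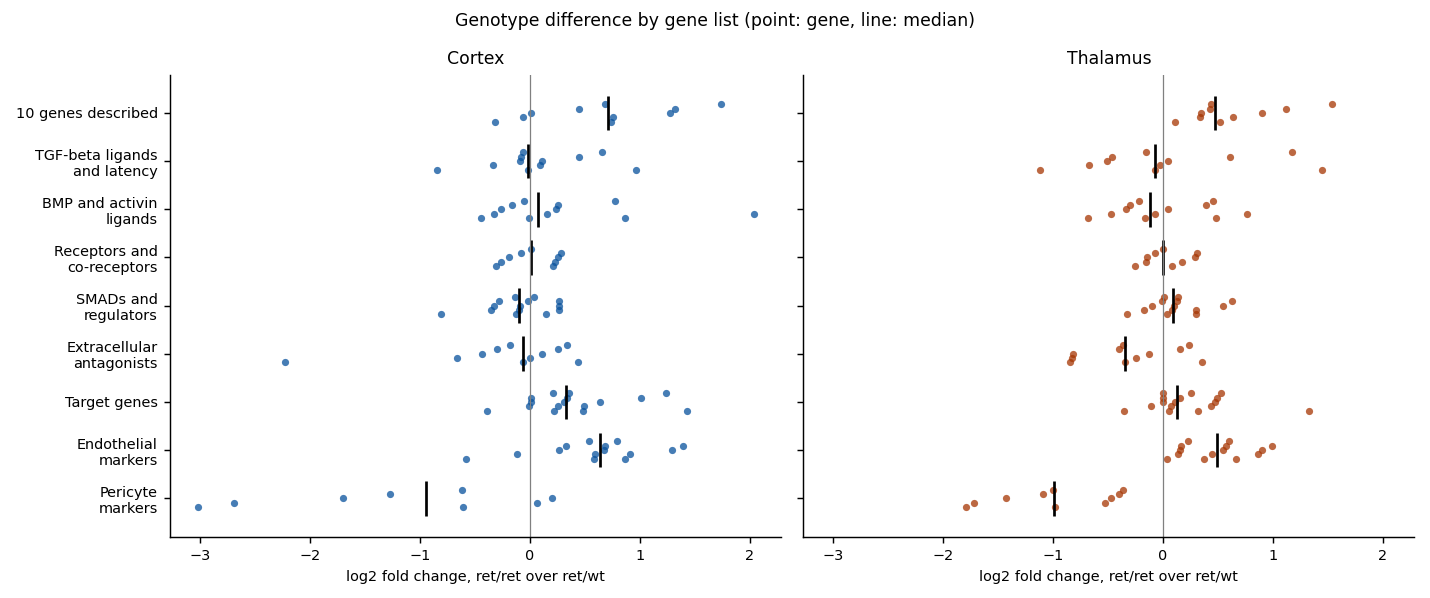
Log2 fold change of ret/ret over ret/wt (horizontal axis) in cortex and thalamus for each gene (point) of the 10 members, the 6 pathway lists and 2 marker lists, with the median as a vertical line. The medians of the 10 members, 0.71 and 0.48, lie beside those of the endothelial markers, 0.63 and 0.49, and the pericyte medians are -0.94 and -0.99.

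The pathway lists held genes that differed between regions. In ret/wt, 17 of 72 genes passed the adjusted threshold in edgeR, 6 higher and 11 lower in thalamus, where the share over all genes was 12.6%. In ret/ret 12 of 73 did, 3 higher and 9 lower, where it was 9.5%. The BMP antagonists Chrdl1 and Chrd were lower in thalamus in both genotypes, with log2 fold changes of -3.02 ± 0.51 and -1.85 ± 0.40 (SE) in ret/wt and -3.21 ± 0.68 and -1.57 ± 0.32 (SE) in ret/ret. The ligand Bmp3 was lower in thalamus, at -2.93 ± 0.42 (SE) in ret/wt and -3.42 ± 0.68 (SE) in ret/ret, and Bmp2 was higher, at 1.40 ± 0.39 (SE) and 1.22 ± 0.31 (SE). The receptor Acvr2a was lower in thalamus, at -1.73 ± 0.39 (SE) in ret/wt and -1.52 ± 0.24 (SE) in ret/ret, as were Ski and Skil, which encode repressors of SMAD-driven transcription.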

How the data were processed

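The values the authors deposited are expected counts, by Ensembl gene, of 16 libraries. The submitters' processing notes name kallisto 0.44.0 and GRCm38.p6, and the kit, per the labels, selected polyA RNA and was stranded. None of the nonzero values is a whole number, so counts were rounded before the fits. Of the identifiers, 21612 (99.1%) matched GENCODE M21, which gave symbols and coordinates.

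Genes were filtered with filterByExpr (minimum count 10, minimum total 15), scaled by TMM, and tested in R 4.3.3 with edgeR 4.0.16 (quasi-likelihood, Benjamini-Hochberg over all genes, threshold 0.05). The fit of each pair of groups used only its 8 libraries, and the interaction used all 16. The main fits between regions and of the interaction did not pair the libraries of an animal, and the animal block was an alternative. DESeq2 1.42.0, limma 3.58.1 and Python 3.11.15 were also used. CPM was scaled over all 16 libraries.

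The members and gene lists were chosen with earlier results of these data known. The rule named every member, and in each comparison the pathway genes with an adjusted p under 0.05 (at most 10, by fold change), filled up to 5 by the smallest unadjusted p. For likeness it named the 3 genes with the highest Pearson r, of which 1 is not reported here. Animal identifiers in the labels pair cortex and thalamus of an animal. Same-animal residuals correlated at -0.02 to 0.24, and equal numbers across genotypes are different animals. The scripts were tested on simulated data. Alternatives covered scaling, tool, filter, replicate block, endothelial RNA as library size, a joint fit and leaving out replicates. The genes Bmp10, Acvr1b, Rgmb, Cldn5, Erg and Myh11 were not analysed here.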

Additional observations from a re-analysis of the deposited data

Results flagged for a closer look

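A library was picked out where its gap to the nearest other library of its group of 4 was above Dixon's 95% critical share of the range. Of 120 groups, those of the 10 members and 20 named pathway genes, 10 were picked out, and chance gives about 1 in 20. Tgfbr2 was at 50.1 CPM in replicate 1 of ret/ret thalamus and at 26.1 to 29.3 CPM in the others. Smad6 was at 1.13 CPM in replicate 3 of ret/ret cortex and at 1.88 to 2.02 CPM in the others. Among the pathway genes, Grem1 was at 0.957 CPM in replicate 3 of ret/wt thalamus, with the others at 1.81 to 1.94 CPM, and at 1.03 CPM in replicate 2 of ret/ret thalamus, with the others at 0.842 to 0.873 CPM. Atoh8 was at 4.46 CPM in replicate 4 of ret/wt thalamus, against 0.419 to 0.943 CPM, the library that was also highest in Id1 and Id3 for its group. Chrd was at 28.3 CPM in replicate 4 of ret/ret cortex, against 14.7 to 16.8 CPM, and at 4.19 CPM in replicate 3 of ret/wt thalamus, against 7.75 to 8.37 CPM. Acvr2a was at 11.3 CPM in replicate 4 of ret/wt thalamus, against 20 to 21.8 CPM. Ski was at 170.3 CPM in replicate 3 of ret/wt cortex, against 152 to 155 CPM, and Inhba, a gene of the activin subunit, was at 25.6 CPM in replicate 3 of ret/ret cortex, against 4.62 to 7.42 CPM.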

How the results depend on the processing

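The number of members with an adjusted p under 0.05 was 0 in every comparison. It was 1 with DESeq2's Wald test in thalamus, in cortex and over both regions, Eng each time. Over all genes that test called 38 of 14767, 39 of 14288 and 80 of 15505. Between regions in ret/ret it was 1 with the same test (Smad7), where 2591 of all 14715 genes were called. With limma-voom over both regions it was 1 (Eng), where 17 of all 15286 genes were called. The other alternatives gave 0. Eng kept a log2 fold change above 1.20 between genotypes under every alternative. The replicate block changed no adjusted call of a member. With it, the number of members at an unadjusted p under 0.05 went from 0 to 1 for the interaction, from 2 to 1 between regions in ret/ret and, on number only, from 4 to 6 over both regions. The matching shares over all genes were not computed with the block. Fits with the animal block turned Tgfb2 and Smad6 between regions in ret/ret to -0.15 and -0.084, and the block on number turned Tgfb2 and Tgfbr1 over both regions to 0.0067 and 0.014.

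Of 890 values recomputed, 69 changed sign, in 25 of the 60 combinations of member and comparison, none of them with a main log2 fold change above 0.64 in size, and the cause was not tested. With endothelial RNA as library size, Tgfb2 and Tgfbr1 in thalamus were at -0.080 and -0.22, and Tgfbr2 and Smad7 in cortex at -0.070 and -0.47. On that scale Smad7 over both regions was at -0.25, and the interaction of Tgfb1 and Eng at 0.093 and 0.028. Between regions it gave Tgfb2, Smad6 and Id1 -0.13, -0.26 and -0.069 in ret/ret, and Tgfbr2, Eng and Smad6 -0.055, -0.22 and -0.027 in ret/wt. Smad7 in cortex was at -0.00062 with the DESeq2 Wald test and -0.0074 in the joint fit. Tgfbr1 over both regions was at 0.011 with both DESeq2 settings, 0.038 with no filter and 0.022 with limma-voom, where Tgfb2 was at 0.064. Without both animals with Y-linked reads, Tgfb2 was at -0.29 in thalamus and -0.49 between regions in ret/ret, and Tgfbr1 at 0.10 in cortex, 0.064 over both regions and -0.053 in the interaction.

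With each replicate left out, the log2 fold change in cortex ran from -0.15 to 0.11 for Smad7, -0.56 to 0.16 for Tgfb2 and -0.18 to 0.053 for Tgfbr1. In thalamus it ran from -0.25 to 0.91 for Tgfb2 and -0.094 to 0.30 for Tgfbr1, and over both regions from -0.32 to 0.22 and -0.13 to 0.074. Between regions in ret/ret it ran from -0.30 to 0.33 for Eng, -0.010 to 0.33 for Id1, -0.47 to 0.41 for Smad6, -0.038 to 0.55 for Tgfb1, -0.45 to 0.38 for Tgfb2 and -0.23 to 0.016 for Tgfbr1, and in ret/wt from -0.033 to 0.36 for Eng. For the interaction it ran from -0.11 to 0.34 for Acvrl1, -0.37 to 0.042 for Eng, -0.55 to 0.13 for Id1, -0.58 to 0.17 for Tgfb1, -0.034 to 1.13 for Tgfb2, -0.042 to 0.37 for Tgfbr1 and -0.11 to 0.20 for Tgfbr2. Smad6, at 5 counts in its lowest library, is the gene that depth limits most.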
